A study of Mus musculus with 5 samples.

Results

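Interferon-stimulated genes (ISGs) are the genes that type I and type II interferons switch on in a responding cell, and 39 of them were followed here by name: 20 antiviral effectors, 5 nucleic acid sensors or their partners, 7 regulators of the response and 7 interferon-inducible GTPases. They were found by their symbol among the 47729 genes of the deposited counts, and all 39 had a row. No measured value entered the rule that names them, but earlier results of these data were known when the genes were chosen. By the protocols, RNA came from dermal group 2 innate lymphoid cells (dILC2s), skin-resident lymphocytes that carry no antigen receptor and release type 2 cytokines. The cells were sorted from the skin of female C57BL/6 mice aged 8 to 13 weeks and lysed without stimulation in culture. There were 3 libraries of WT mice (pools 5, 6 and 13, each of 10 mice by the study's methods) and 2 libraries labelled Rag1-/- on the B6 background (pools 2 and 7, each of 9 mice by the methods, whereas the labels count 16 Rag1-/- mice in all). The comparison asks how dILC2s of mice without the recombinase RAG1 differ from WT dILC2s. Rag1 deletion is carried by every cell and leaves the host without mature T and B cells, so that an effect within the sorted cell and an effect of the changed host cannot be told apart. The cell type field of the labelled Rag1-/- libraries reads innate lymphoid cells type 3, although the protocols and the study describe all 5 libraries as dILC2s.

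Type I interferons bind the IFNAR1-IFNAR2 receptor and, through the kinases JAK1 and TYK2, assemble ISGF3, a complex with STAT2 and IRF9 in it that binds the interferon-stimulated response element (ISRE). Interferon-γ binds IFNGR1-IFNGR2 and, through JAK1 and JAK2, acts on the gamma-activated sequence (GAS). Many ISGs respond to both, the OAS, IFIT and MX families mostly to type I interferon and the guanylate-binding proteins (GBPs) and immunity-related GTPases strongly to interferon-γ. In lymphocytes interferons restrain type 2 cytokine production, and interferon-γ is itself a product of NK cells, type 1 innate lymphoid cells and T cells.

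The promoters of the genes show which of these elements they carry. A RefSeq promoter window of GRCm38.p6, 250 bases before to 50 bases after a gene's start, was matched for 28 of the 39 genes (32 windows), and no entry was matched for Dhx58, Ifi27, Iigp1, Mx1, Mx2, Oas2, Parp14, Parp9, Rtp4, Usp18 or Zbp1. The ISRE core was searched as GAAANNGAAA on both strands, and the GAS core as the palindrome TTCNNNGAA. The ISRE letters occurred in 16 of the 32 windows (50.0%), against 3.44% of all 32851 windows of the same length. The GAS letters occurred in 9 of the 32 windows (28.1%), against 8.3% of all windows. Both were found in Bst2, Eif2ak2, Gbp5, Gbp7, Igtp and Oas1a, where they can share bases, and neither in Cmpk2, Dtx3l, Ifi44, Irf7, Irf9, Oasl1, Oasl2, Trim25 and Xaf1. Stretches of 7 windows are shown here because the results below turn on these genes: Oas3 and Bst2 were called higher, Isg15 and Ifit1 carry several cores without being called, Gbp5 and Igtp are GTPase genes with differences of opposite sign, and Irf1 has the highest level. Capitals mark the matched cores on the strand of the gene, where the ISRE cores of Ifit1 read on the opposite strand, and positions are those of GRCm38. The Gbp5 window lies inside the gene as counted, which begins at 142493978, and the other matches of Gbp5 fall outside the stretch shown.
Oas3 (chr5:120777700-120777759, minus strand): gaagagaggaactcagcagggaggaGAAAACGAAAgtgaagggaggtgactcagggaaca
Bst2 (chr8:71537562-71537633, minus strand): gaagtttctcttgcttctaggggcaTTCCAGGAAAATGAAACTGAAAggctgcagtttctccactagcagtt
Isg15 (chr4:156200850-156200921, minus strand): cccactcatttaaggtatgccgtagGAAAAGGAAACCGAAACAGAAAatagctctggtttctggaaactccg
Ifit1 (chr19:34640760-34640838, plus strand): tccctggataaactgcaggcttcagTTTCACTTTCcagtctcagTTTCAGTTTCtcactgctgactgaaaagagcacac
Gbp5 (chr3:142496857-142496915, plus strand): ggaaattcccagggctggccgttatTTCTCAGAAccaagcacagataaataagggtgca
Igtp (chr11:58199486-58199555, plus strand): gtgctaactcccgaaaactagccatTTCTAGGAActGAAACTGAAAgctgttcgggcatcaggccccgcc
Irf1 (chr11:53769899-53769957, plus strand): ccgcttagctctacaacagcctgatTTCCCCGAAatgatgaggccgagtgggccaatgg
A match is a description of letters and not of a bound site. The same letters accompanied different results: in Isg15 overlapping ISRE cores form 1 run and in Ifit1 there are 2 separate cores, and neither gene was called, whereas Oas3, with 1 core, was. Of the 16 genes with the ISRE letters 2 were called higher, and of the 12 genes without them 1 was, with median log2 fold changes of 0.44 and 0.50.

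Several properties of the libraries bear on every value below. Total counts on genes were 32939428 to 39477243 in the WT libraries, 8050562 in pool 2 and 38922750 in pool 7, so that the smallest level taken as seen, 3 counts, was 0.373 CPM (the count scaled to a fixed library total) in pool 2 and 0.0760 to 0.0911 CPM in the others. Such limits cover counting error only. The targeted gene was not lower in the libraries labelled Rag1-/-, and its difference was not called. Rag1 (chromosome 2, 101638282 to 101649501) was counted 4, 0 and 5 times in WT and 5 and 48 times in pools 2 and 7, with a log2 fold change of 3.53 (SE 1.03, adjusted p = 0.0866, edgeR). A count over the whole gene does not show which of its parts the reads covered, and the deleted part is not given in the sources used here. All directions below therefore rest on the genotype labels. The ILC2 transcripts were present in all libraries, Gata3, the lineage factor, at 199, 319 and 229 CPM in WT and at 558 and 369 CPM in pools 2 and 7. Transcripts of keratinocytes, the epithelial cells of skin, and of fibroblasts were also present, at higher summed levels than the ILC2 genes. The summed level of 18 ILC2 genes was 1474 to 2722 CPM in WT and 7141 and 4881 CPM in pools 2 and 7. That of 8 fibroblast genes was 7474 to 13380 CPM in WT and 8167 and 7944 CPM in pools 2 and 7. Values below are those of whole libraries, and which cells a transcript came from was not tested. The summed level of 30 keratinocyte genes was 37760 to 55100 CPM in WT against 9235 and 22520 CPM, and that of 30 leukocyte genes 1195 to 2903 CPM against 9759 and 8407 CPM. Of the leukocyte genes, 22 of 29 tested were called higher, and of the keratinocyte genes 10 of 30 lower. For the other cell types, 7 of 18 ILC2 genes, 4 of 7 ILC3 and type 17 genes, 4 of 11 T cell genes and 2 of 8 NK and ILC1 genes were called higher. The called T cell genes were Cd3g, Cd247, Trac and Trbc2, and the ranges of 4 others, Cd3e and Cd3d among them, overlapped. Cd5 was lower instead, at a log2 fold change of -1.48 (adjusted p = 0.135, edgeR), and DESeq2 called it lower. The B cell, myeloid, mast cell, fibroblast and endothelial lists held no call, with 1, 0, 1, 0 and 2 genes at an unadjusted p under 0.05 in edgeR. In these 5 lists limma called no gene and DESeq2 called 1 mast cell gene higher and 1 endothelial gene lower. No gene of these lists was at 0 in every library. In bulk RNA, fewer cells of a type and less RNA per cell cannot be told apart, and the part of this shift in the results below was not tested.

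The sensor Zbp1, the effectors Oas3 and Bst2 and the regulator Irf7 were called higher in the libraries labelled Rag1-/-, with log2 fold changes of 2.74, 2.52, 1.37 and 1.09. The genotypes were compared across all 19011 genes kept by edgeR's filter, by the quasi-likelihood method with p-values adjusted by Benjamini-Hochberg. A gene was called if its adjusted p was under 0.05 and its log2 fold change exceeded 1 in size. All 39 genes passed the filter. The 4 called higher were 10.3% of them, against 3.57% of all genes tested (5.73% called in either direction). None was called lower by edgeR, DESeq2 or limma (Ifih1 and Gbp5 were lower at an unadjusted p under 0.05 in each of the 3), against 2.16% of all genes tested by edgeR. The log2 fold change was positive for 27 genes and negative for 12, with a median of 0.42 (quartiles -0.25 and 0.91), beside a median of 0.02 over all genes tested. The CPM ranges of the genotypes did not overlap for 15 genes that were higher and 6 that were lower in the labelled Rag1-/- libraries, 53.8% of the 39, against 45.9% of all genes tested (21.9% higher and 24% lower). The share separated in either direction was thus near that of all genes, but its split by direction was not. Of the 39 genes, 15 were separated as higher and 6 as lower. Among all genes tested, fewer were separated as higher (21.9%) than as lower (24%). This difference in direction was not tested. With so few libraries there are only 10 ways to split them, and the smallest p that exact permutation could give for 1 gene is 0.1, one-sided, so that no such test was made.

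**Figure D1:**
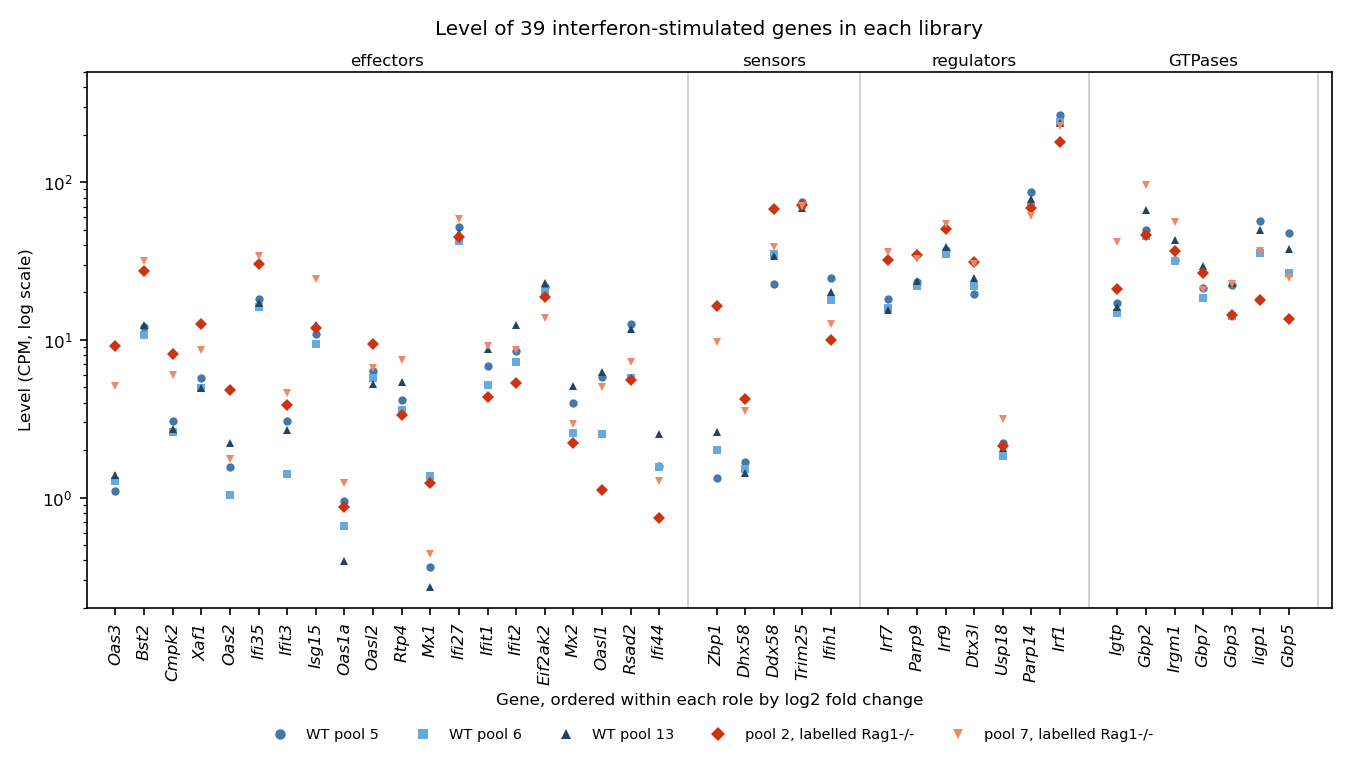
Level of each of the 39 genes in each library (CPM, log scale), grouped by role and ordered by log2 fold change within a role. Blue symbols are the 3 WT pools and red symbols the 2 pools labelled Rag1-/-; Zbp1 and Oas3 show the widest gap between the colours, Irf1 has the highest CPM, and for Trim25, Gbp3 and Ifit1 the colours mix.

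The calls depended on the libraries and on the scaling. Without any 1 of WT pools 5, 6 and 13 or of pool 2, edgeR called 0 genes of the module and 0 genes in all, with 11, 12, 14 and 17 of the 39 at an unadjusted p under 0.05. Without pool 7, Zbp1, Oas3, Bst2, Cmpk2 and Xaf1 were called higher and Iigp1 lower, and the median of the 39 was 0.07. When the libraries were scaled on the 30 leukocyte genes instead, the log2 fold changes of all genes shifted by a median of -2.22 and only Zbp1 and Oas3 of the 39 kept a positive value. Under that scaling the median of the module was -1.76, higher than the shift of all genes, and 0 genes of the module were called higher and 23 lower. The directions given below are those relative to all genes, with TMM scaling.

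**Figure D2:**
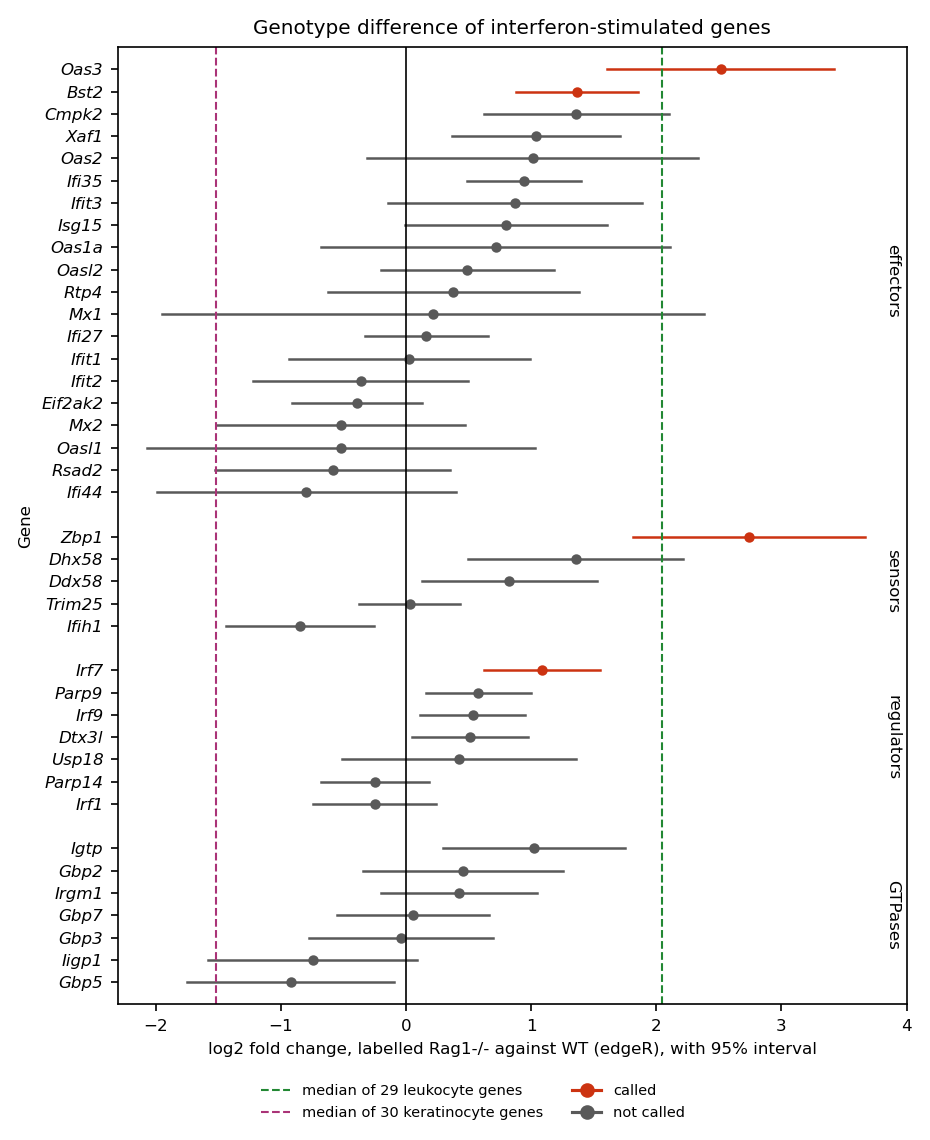
Log2 fold change of each gene, labelled Rag1-/- against WT, with its 95% interval from edgeR and TMM scaling. The 4 called genes are red, the dashed lines mark the medians of 29 leukocyte genes (2.05) and 30 keratinocyte genes (-1.52), and all genes except Oas3 and Zbp1 lie between these lines; scaled on leukocyte genes instead, only Zbp1 and Oas3 stayed above 0.

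Among the 20 effectors, 2 were called higher (10%, against 3.57% of all genes tested), and the ranges of the genotypes separated for 7 that were higher and 2 that were lower, 45% of them against 45.9% of all genes tested. Oas3 (chromosome 5, 120753098 to 120777661, minus strand), which on binding double-stranded RNA makes the 2'-5'-linked oligoadenylates that activate RNase L, measured 1.11, 1.27 and 1.40 CPM in WT pools 5, 6 and 13 and 9.19 and 5.11 CPM in pools 2 and 7. Every labelled Rag1-/- value lay above every WT value, and the log2 fold change was 2.52 (SE 0.39, adjusted p = 0.0306, edgeR). Bst2 (chromosome 8, 71534264 to 71537437, minus strand) encodes tetherin, which holds budding virions at the cell surface. It measured 12.2, 10.8 and 12.4 CPM in WT and 27.5 and 31.7 CPM in pools 2 and 7, with little spread within either genotype. Its log2 fold change of 1.37 (SE 0.21, adjusted p = 0.0306, edgeR) became -0.88 on the leukocyte scaling. Oas3 had the larger fold change and the lower level: per kilobase of exons the mean level of Oas3 was 0.178 CPM in WT and 1.01 CPM in the labelled Rag1-/- libraries, where that of Bst2 was 32.7 CPM.

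Other effectors were separated between the genotypes without being called. Ifi35, an interferon-induced leucine zipper protein, measured 18.1, 16.2 and 17.2 CPM in WT and 30.2 and 34.1 CPM in pools 2 and 7. It passed the adjusted p (0.0393, edgeR) but not the minimum fold, at a log2 fold change of 0.94. Cmpk2, a mitochondrial nucleotide kinase, measured 3.07, 2.61 and 2.73 CPM against 8.20 and 6.01 CPM, a log2 fold change of 1.36 (SE 0.31, adjusted p = 0.0509, edgeR) that missed the threshold, and DESeq2 called it. Xaf1, a pro-apoptotic antagonist of XIAP, measured 5.77, 4.96 and 4.98 CPM against 12.5 and 8.68 CPM, a log2 fold change of 1.04 (SE 0.28, adjusted p = 0.0749, edgeR). All 3 genes were thus higher in both labelled Rag1-/- pools than in any WT pool. Ifit3 (log2 fold change 0.87) and Oasl2 (0.49) were separated in the same way, with intervals that included 0.

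Isg15, Ifit1, Ifit2 and Ifi27 did not pass the test (adjusted p = 0.192 to 0.978, edgeR). Isg15, the ubiquitin-like modifier, measured 10.9, 9.40 and 12.4 CPM in WT and 11.9 and 24.5 CPM in pools 2 and 7, so that pool 7 alone stood above the WT range. Ifit1, which binds RNA with foreign 5' ends, measured 6.86, 5.19 and 8.77 CPM in WT and 4.35 and 9.09 CPM in pools 2 and 7, which lay below and above all WT values. Its log2 fold change of 0.03 (95% interval -0.94 to 0.99) does not show equal levels, since the interval is wide. It was slightly negative with RLE scaling, library size alone, limma, no filter and the stricter filter. Ifit2, of the same family, measured 8.53, 7.22 and 12.4 CPM against 5.34 and 8.66 CPM, with a log2 fold change of -0.36. Ifi27 had the highest CPM of the effectors, 52.0, 42.6 and 47.5 in WT and 45.1 and 58.1 in pools 2 and 7, and its ranges overlapped.

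The other effectors with negative log2 fold changes were Eif2ak2, Ifi44, Rsad2, Mx2 and Oasl1, and none of them passed the test. Eif2ak2 encodes PKR, the kinase that arrests translation on double-stranded RNA. It measured 21.7, 20.2 and 23.0 CPM in WT and 18.8 and 13.8 CPM in pools 2 and 7, lower in both (log2 fold change -0.39, adjusted p = 0.311, edgeR). Ifi44 was also lower in both, at 1.60, 1.57 and 2.52 CPM against 0.745 and 1.28 CPM, the first of the latter from 6 counts. Rsad2, the antiviral radical-SAM enzyme viperin, measured 12.7, 5.72 and 11.7 CPM against 5.59 and 7.27 CPM, where pool 2 lay just below the lowest WT pool and pool 7 within the wide WT range. Mx2, a dynamin-like GTPase gene, measured 3.97, 2.56 and 5.07 CPM against 2.24 and 2.93 CPM. Oasl1, an OAS-like protein that lacks synthetase activity, measured 5.83, 2.53 and 6.22 CPM against 1.12 and 5.06 CPM, where pool 2 (9 counts) was the lowest library and pool 7 lay within WT. Mx1, inactive as a protein in C57BL/6 mice, had 9 to 54 counts per WT library and 10 and 17 counts in pools 2 and 7, or 0.361, 1.37 and 0.273 CPM against 1.24 and 0.437 CPM. Its ranges overlapped, and the log2 fold change of 0.22 had a wide 95% interval of -1.94 to 2.38. The remaining effectors overlapped between the genotypes, Oas2 at a log2 fold change of 1.01, Oas1a at 0.72 and Rtp4 at 0.38. Reads of Oas1a and of the IFIT genes can be split with close paralogs. As a sum, the 20 effectors reached 146.7 to 184.5 CPM in WT and 206.3 and 238.4 CPM in pools 2 and 7, without overlap. Such a sum is weighted toward genes of high level, among them Bst2 and Ifi35, which were higher in both labelled Rag1-/- pools. The ranges of 11 of the 20 effectors overlapped, so the sum does not describe the effectors as a group.

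The 5 sensors held the gene with the largest log2 fold change of the module, the only 1 of them called by edgeR (20%, against 3.57% of all genes tested). Ranges separated for 3 sensors that were higher and 1 that was lower, 80% against 45.9% of all genes tested. Zbp1 (chromosome 2, 173206612 to 173218923, minus strand), a sensor of Z-form nucleic acids that can start necroptosis, measured 1.34, 2.00 and 2.61 CPM in WT and 16.5 and 9.74 CPM in pools 2 and 7. The lowest labelled Rag1-/- value was above the highest WT value, and the log2 fold change was 2.74 (SE 0.39, adjusted p = 0.0306, edgeR). On the leukocyte scaling it was 0.65. The RIG-I-like receptors, which detect viral RNA in the cytosol, pointed both ways. Dhx58 (LGP2) measured 1.68, 1.52 and 1.43 CPM in WT and 4.22 and 3.55 CPM in pools 2 and 7 (log2 fold change 1.36, SE 0.37, adjusted p = 0.0722, edgeR). Ddx58 (RIG-I) measured 22.7, 34.8 and 34.0 CPM against 68.1 and 38.9 CPM (log2 fold change 0.83, adjusted p = 0.136, edgeR). Both were higher in both labelled Rag1-/- pools than in any WT pool. Ifih1 (MDA5) was lower instead, at 24.7, 17.9 and 20.3 CPM in WT and 10.1 and 12.5 CPM in pools 2 and 7, without overlap (log2 fold change -0.84, SE 0.25, adjusted p = 0.0910, edgeR). None of the 3 receptors was called by edgeR, and DESeq2 called Dhx58. From gene start to gene end, introns included, Dhx58 shares 2637 bases with Dhx58os, which held 157 counts against 344 for Dhx58. Trim25, a ubiquitin ligase that acts on RIG-I, had the most even level of the module, 74.5, 71.7 and 68.9 CPM in WT and 71.9 and 71.0 CPM in pools 2 and 7. Its log2 fold change was 0.03 with a 95% interval of -0.38 to 0.43, and it was at or just below 0 with RLE scaling, library size alone and both other filters.

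Among the 7 regulators, only Irf7 was called higher (14.3%, against 3.57% of all genes tested). Ranges separated for 4 regulators that were higher and 2 that were lower, 85.7% against 45.9% of all genes tested. Irf7 (chromosome 7, 141262706 to 141266481, minus strand) encodes the factor that amplifies interferon-α production. It measured 18.1, 16.1 and 15.4 CPM in WT and 32.3 and 36.1 CPM in pools 2 and 7, tight within each genotype, with a log2 fold change of 1.09 (SE 0.20, adjusted p = 0.0329, edgeR) that became -1.19 on the leukocyte scaling. Irf9, the DNA-binding part of ISGF3, measured 37.4, 34.9 and 38.9 CPM against 50.3 and 54.4 CPM (log2 fold change 0.53). Parp9 and Dtx3l encode partners in 1 ubiquitin ligase complex. Parp9 measured 23.2, 22.1 and 23.8 CPM against 34.8 and 32.5 CPM (log2 fold change 0.58), and Dtx3l 19.6, 21.8 and 24.8 CPM against 31.3 and 30.3 CPM (log2 fold change 0.51). All 3 were higher in both labelled Rag1-/- pools than in any WT pool and none was called (adjusted p = 0.0976 to 0.154, edgeR). From gene start to gene end, introns included, Parp9 and Dtx3l overlap by 682 bases, and Parp9 shares 5854 bases with Gm15564. Gm15564 held 47232 counts against 4099 for Parp9, and the reads of the kit carry no strand. Irf7 shares 45 bases with Phrf1 in the same way, and Phrf1 held 16048 counts against 3507 for Irf7.

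Irf1 and Parp14 were lower in both labelled Rag1-/- pools. Irf1, a transcription factor induced through GAS elements, had the highest level of the module per kilobase of exons, a WT mean of 62.6 CPM. It measured 266, 241 and 239 CPM in WT and 181 and 227 CPM in pools 2 and 7, a log2 fold change of -0.25 (95% interval -0.74 to 0.24). Parp14, an ADP-ribosyltransferase, measured 86.7, 71.0 and 78.5 CPM against 68.4 and 61.5 CPM, a log2 fold change of -0.25. Neither difference passed the test. Usp18, the protease that removes ISG15 and blocks IFNAR2 signalling, measured 2.22, 1.85 and 2.06 CPM against 2.11 and 3.13 CPM, with overlapping ranges.

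None of the 7 GTPases was called by edgeR, DESeq2 or limma, where edgeR called 5.73% of all genes tested in either direction. Lists of 5 or 7 genes are too short to set 0 or 1 call apart from such shares. Igtp was higher and Gbp5 lower at an unadjusted p under 0.05 in edgeR. Ranges separated for 1 GTPase gene that was higher and 1 that was lower, 28.6% against 45.9% of all genes tested. The median log2 fold change of the 7 GTPases was 0.06, beside 0.43 for the effectors, 0.83 for the sensors and 0.51 for the regulators. These differences between roles were not tested. Igtp, an immunity-related GTPase of the interferon-γ response to vacuolar pathogens, measured 17.2, 14.9 and 16.2 CPM in WT and 21.1 and 41.8 CPM in pools 2 and 7 (log2 fold change 1.02, SE 0.31, adjusted p = 0.0939, edgeR). Both pools were above WT. From gene start to gene end, introns included, Igtp lies almost wholly within Irgm2, with 7974 shared bases. Whether their exons overlap was not examined, so the effect on the Igtp count is not known. Gbp5, which promotes inflammasome assembly, measured 47.9, 26.7 and 38.0 CPM in WT and 13.5 and 24.5 CPM in pools 2 and 7, lower in both (log2 fold change -0.92, SE 0.35, adjusted p = 0.154, edgeR). Iigp1, whose protein disrupts pathogen vacuoles, measured 56.6, 35.6 and 50.2 CPM against 17.9 and 36.5 CPM, where only pool 2 lay below WT, and its log2 fold change of -0.74 was called lower once pool 7 was left out.

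Gbp2 and Gbp3 showed the pools labelled Rag1-/- on different sides of WT or within it. Gbp2 had the highest CPM of the GTPases, 50.0, 45.4 and 66.3 in WT, and measured 46.1 and 96.4 CPM in pools 2 and 7, the first within the WT range and the second above it. Gbp3 measured 22.2, 14.2 and 23.1 CPM against 14.4 and 22.8 CPM, a log2 fold change of -0.04 (95% interval -0.78 to 0.70). Gbp7 (0.06) and Irgm1 (0.42) had overlapping ranges. Reads of the GBP genes can be shared between paralogs. As a sum the 7 GTPases reached 187.0 to 266.5 CPM in WT and 176.0 and 298.8 CPM in pools 2 and 7, so that 1 labelled Rag1-/- pool lay below and the other above all WT pools.

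The pools labelled Rag1-/- differed from each other as well as from WT. Both lay above the WT range for 15 genes and below it for 6. Of the other 18 genes, both were on the same side of the WT mean for 10 and on opposite sides for 8. Pool 2 was the highest library for 10 genes and the lowest for 11, and pool 7 the highest for 14 and the lowest for 2. Relative to the WT mean, Zbp1 was 8.33 times as high in pool 2 and 4.91 times in pool 7, and Oas3 7.31 and 4.07 times, whereas Isg15 was 1.09 and 2.25 times as high and Igtp 1.31 and 2.60 times. Oasl1 was at 0.230 of the WT mean in pool 2 and at 1.04 in pool 7. The summed level of all 39 genes, 1006, 870.7 and 1001 CPM in WT pools 5, 6 and 13 and 953.0 and 1118 CPM in pools 2 and 7, did not separate the genotypes.

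**Figure D3:**
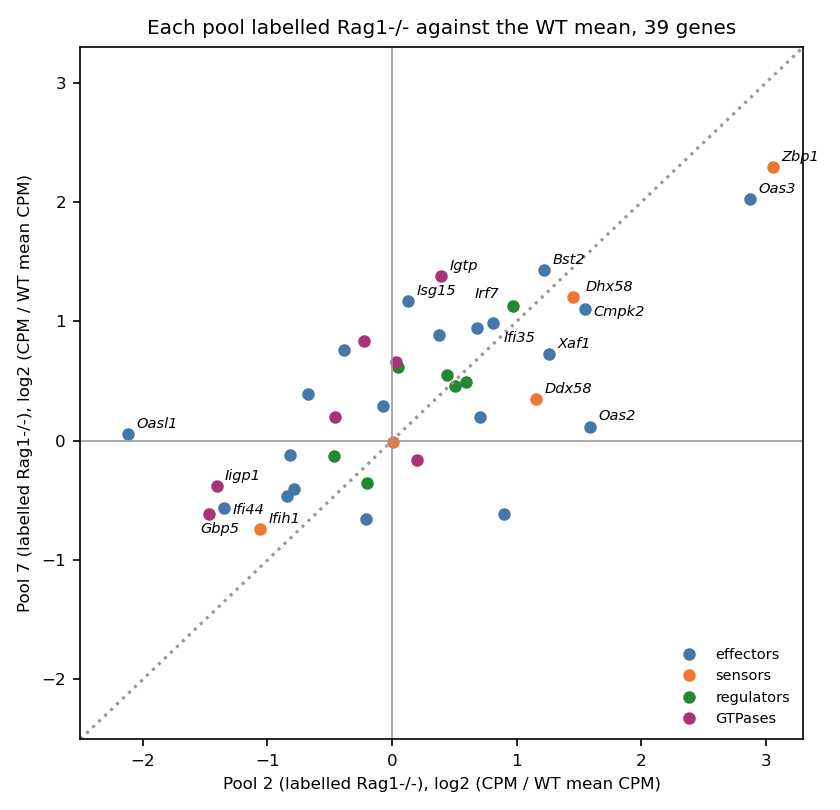
Level of each gene in pool 2 (x axis) and in pool 7 (y axis), as log2 of its CPM over the mean CPM of the 3 WT pools, coloured by role, with the dotted line where both pools are equal. Zbp1 and Oas3 lie far to the upper right, Isg15 and Igtp lie above the dotted line because pool 7 was the higher of the pools, and Oasl1 lies to the left because it was low in pool 2 alone; pool 2 is the shallowest library.

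Neighbouring genes did not share a direction throughout. Of the 39 genes, 19 lie in 7 groups with gaps of at most 150 kb. On chromosome 5 (120730333 to 120907521) Oas3 was called while its neighbours Oas2 and Oas1a, at log2 fold changes of 1.01 and 0.72, were not. On chromosome 12 (26442753 to 26479835) Rsad2 and Cmpk2, which stand 37.1 kb from end to end, had log2 fold changes of -0.59 (95% interval -1.53 to 0.35) and 1.36 (0.62 to 2.10), with intervals that did not overlap. On chromosome 16 (35832874 to 35972605) Parp14 was at -0.25 beside Dtx3l at 0.51 and Parp9 at 0.58. The GBP group on chromosome 3 (142493978 to 142638008) ran from -0.92 for Gbp5 through 0.06 for Gbp7 and -0.04 for Gbp3 to 0.45 for Gbp2. In the IFIT group on chromosome 19, Ifit2 and Ifit1 at -0.36 and 0.03 flanked Ifit3 at 0.87, with wide and overlapping intervals.

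**Figure D4:**
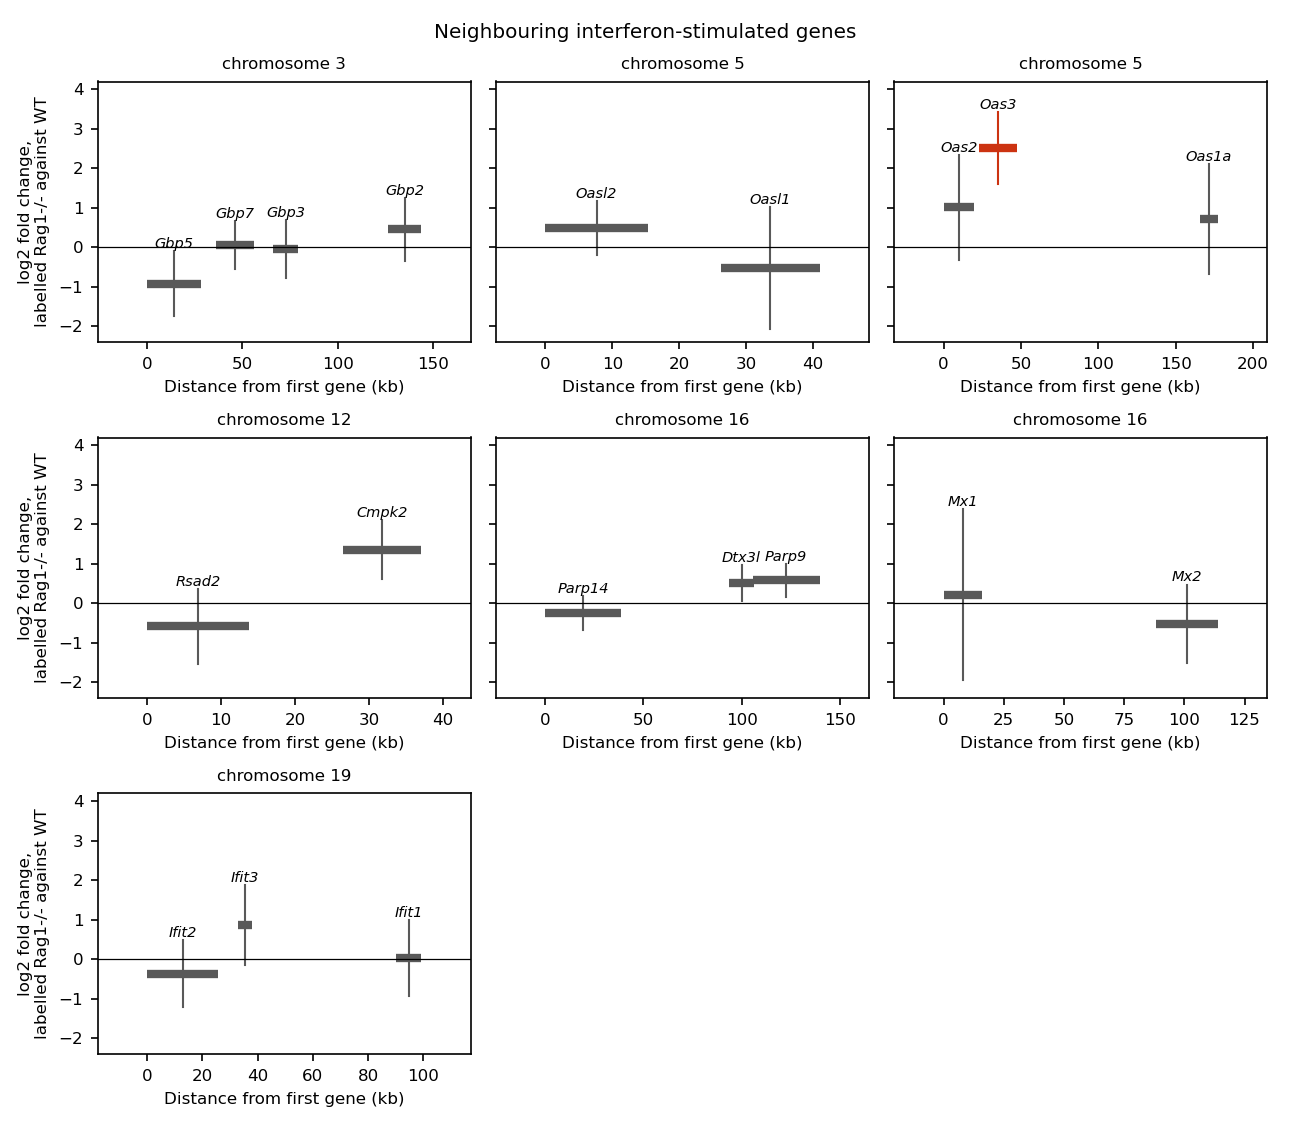
Log2 fold change (edgeR, TMM scaling) of neighbouring genes in 7 groups, against distance from the start of the first gene; thick bars span each gene and thin lines are 95% intervals. Only Oas3, in red, was called, and Rsad2 and Cmpk2 on chromosome 12 lie on opposite sides of 0.

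The upstream pathway was examined through a list of 49 genes, 30 of which passed the filter. Of these, 6 (20%) were called higher by edgeR (3.57% of all genes tested), among them the ligand Ifng, both chains of its receptor, the kinase Tyk2 and the feedback inhibitor Socs1. With RLE scaling 4 were called and with library size alone 5. None was called lower by edgeR or limma, with Ifnlr1, a receptor chain for interferon-λ, and Ifnk, the keratinocyte interferon, lower at an unadjusted p under 0.05 in each. DESeq2 called 8 higher and Ifnlr1 lower. Of the 21 ligand genes, 19 did not pass the filter, and the interferon-α and interferon-λ genes had at most 1 count in any library. Ifnb1, the interferon-β gene, was counted 6, 0 and 4 times in WT and 0 and 3 times in pools 2 and 7, so that no difference was detectable. Ifng, the interferon-γ gene, was counted 5, 8 and 0 times in WT and 54 and 40 times in pools 2 and 7, or 0.129, 0.203 and 0 CPM against 6.71 and 1.03 CPM. Its log2 fold change of 4.99 (SE 1.13, adjusted p = 0.0492, edgeR) rests on few WT counts. The call of Ifng was lost with RLE scaling (adjusted p = 0.0507, edgeR) and with library size alone (0.0510), at log2 fold changes of 4.96 and 4.99, and on the leukocyte scaling the log2 fold change was 2.82. The flow cytometry gate that the study describes for dILC2s took viable CD45+ CD90hi cells and left out those with CD2 or CD3 signal, which include NK cells, and no separate gate for the sequenced cells is given. The NK and ILC1 marker genes summed to 7.22 to 17.4 CPM in WT and 56.1 and 68.3 CPM in pools 2 and 7, and their part in the Ifng value was not tested.

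The 4 receptor chains for interferon-γ and type I interferon were higher in both labelled Rag1-/- pools than in any WT pool, and on the leukocyte scaling all 4 turned negative. Ifngr1, the ligand-binding chain of the interferon-γ receptor, measured 158, 379 and 321 CPM in WT and 812 and 913 CPM in pools 2 and 7 (log2 fold change 1.63, SE 0.37, adjusted p = 0.0489, edgeR), a call that was lost with RLE scaling (adjusted p = 0.0505, log2 fold change 1.60). Ifngr2, its signalling chain, measured 38.6, 59.1 and 58.3 CPM against 121 and 114 CPM (log2 fold change 1.21, SE 0.24, adjusted p = 0.0368, edgeR). The type I receptor chains missed the call, Ifnar1 at 85.1, 139 and 159 CPM against 325 and 265 CPM (log2 fold change 1.23, adjusted p = 0.0513, edgeR). Ifnar1 was called by DESeq2 and limma and by edgeR with no filter and with the stricter filter. Ifnar2 measured 30.6, 35.2 and 37.2 CPM against 53.8 and 56.9 CPM (log2 fold change 0.72, adjusted p = 0.0657, edgeR). WT pool 5 had the lowest level of all 4 receptor genes, and it was also the library with the lowest leukocyte sum, 1195 CPM against 2903 and 2854 CPM in WT pools 6 and 13. Its part in the receptor values was not tested.

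Among the signalling genes, Tyk2 was called and Jak1, Jak2 and Stat2 were not. Tyk2, a kinase of the type I receptor, measured 50.5, 58.8 and 51.9 CPM in WT and 138 and 86.0 CPM in pools 2 and 7 (log2 fold change 1.08, SE 0.23, adjusted p = 0.0433, edgeR), and the call was lost with no filter, at 0.9955 on the log2 scale. Stat2 measured 65.6, 68.2 and 67.8 CPM against 81.4 and 53.6 CPM, 1 pool on either side of WT (log2 fold change 0.03, 95% interval -0.47 to 0.53, and at or just below 0 with RLE scaling, DESeq2 and both other filters). Jak1 measured 565, 598 and 541 CPM against 607 and 576 CPM (log2 fold change 0.09). Jak2 measured 334, 604 and 531 CPM against 1073 and 689.6 CPM (log2 fold change 0.87, adjusted p = 0.143, edgeR). Socs1, which inhibits the Janus kinases, measured 20.5, 30.5 and 23.2 CPM in WT and 77.3 and 84.2 CPM in pools 2 and 7, and its log2 fold change was 1.74 (SE 0.23, adjusted p = 0.0306, edgeR). Tyk2 and Socs1 turned negative on the leukocyte scaling, at -1.14 and -0.41. The nucleic acid sensing genes of the list, 12 in all, held no call by edgeR, DESeq2 or limma, where edgeR called 5.73% of all genes tested in either direction. Sting1 passed the adjusted p (0.0401, edgeR) but not the minimum fold, at a log2 fold change of 0.85. Irf5 and Ikbke were higher at an unadjusted p under 0.05 only, in edgeR. Ifnlr1, Ifnk and these 3 genes are named because of their values.

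**Figure D5:**
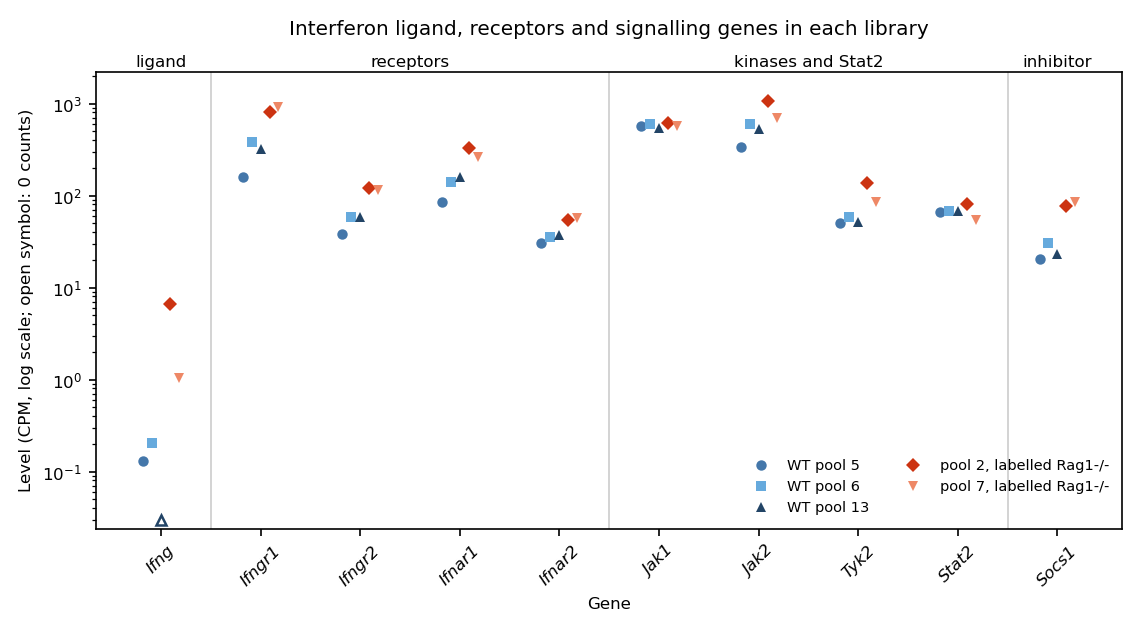
Level (CPM, log scale) of interferon-γ, the interferon receptors, their kinases, Stat2 and Socs1 in each library, with an open symbol for 0 counts. The red symbols (pools labelled Rag1-/-) stand above the blue WT symbols for Ifng, both Ifngr chains, both Ifnar chains, Jak2, Tyk2 and Socs1 and mix with them for Jak1 and Stat2; on the leukocyte scaling only Ifng stayed above 0.

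A wider list of 64 further interferon-stimulated genes, 61 of them tested, was also examined. Of these, 10 (16.4%) were called higher and none lower by edgeR, against 3.57% and 2.16% of all genes tested (Slfn5 lower at an unadjusted p under 0.05, and no lower call by DESeq2 or limma), 54 had positive log2 fold changes, and the median was 0.82. The 8 with the smallest adjusted p were Lgals3bp, Psmb8, Ly6e, Ms4a4c, Uba7, Cd274, Samhd1 and Ms4a4b. Lgals3bp, a secreted galectin-3-binding glycoprotein, measured 21.8, 25.9 and 27.6 CPM in WT and 91.7 and 82.8 CPM in pools 2 and 7 (log2 fold change 1.83, SE 0.19). Psmb8, an immunoproteasome subunit, measured 22.1, 22.7 and 20.8 CPM against 58.5 and 64.0 CPM (1.52, SE 0.18). Uba7, the enzyme that activates ISG15 for conjugation, measured 12.6, 22.9 and 14.1 CPM against 81.0 and 43.2 CPM (1.92, SE 0.35). In the whole list the ranges of the genotypes separated for 40 genes that were higher and 3 that were lower, 70.5% against 45.9% of all genes tested. For all 8 every labelled Rag1-/- value was above every WT value. They were chosen by their adjusted p in this same comparison, so this separation adds no support. The log2 fold changes of the other 5 were 1.61 for Ly6e, 2.19 for Ms4a4c, 1.49 for Cd274, which encodes the checkpoint ligand PD-L1, 1.31 for Samhd1, which hydrolyses the nucleotides viruses need, and 2.87 for Ms4a4b. On the leukocyte scaling Ms4a4b and Ms4a4c kept a positive sign and the other 6 did not. The median of the leukocyte marker genes in the same comparison was 2.05, and the part of the leukocyte shift in the values of these 8 genes was not tested.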

How the data were processed

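RNA of sorted dILC2s was sequenced by the authors with a poly(A) kit that does not keep strand, in single reads of 50 bases. The authors aligned reads to GRCm38 with STAR 2.5 and counted them per gene with featureCounts 1.5.0-p1 (the sources name different annotation releases). The deposited raw counts per gene were the input of every test. A deposited table normalized with DESeq2 1.8.2 was not used. Exon lengths per gene came from the annotation of the reference on the same build. CPM was computed on all counts of a library, so that a few abundant genes, such as keratins, lower the CPM of all others.

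Libraries were grouped by their labels, and genotype was the only term. The groups share no replicate number. Counts were tested with edgeR 4.0.16 in R 4.3.3 (filterByExpr with a minimum count of 10, TMM, quasi-likelihood test, Benjamini-Hochberg adjustment over all genes tested) and called by the study's thresholds, an adjusted p under 0.05 with a log2 fold change above 1 in size. SE was the log2 fold change over the square root of F. In simulated counts for this comparison (18439 genes) edgeR recovered 47 of 91 genes changed by a log2 fold of 2 and 86 of 106 changed by 3, with 12 false calls. The simulation took the fitted dispersions as true and changed few genes, up or down with equal odds. In the data 5022 genes had an unadjusted p under 0.05 (edgeR), so these figures are not error rates of the real comparison.

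The 39 genes and all lists were chosen with earlier results of these data known. Values per library are given for called genes, the 5 next by adjusted p, the 3 with the largest adjusted p, all with negative log2 fold changes and the highest CPM per role. Values per library of Isg15, Igtp, Ddx58, Irf9, Parp9, Dtx3l and Usp18 were added after their values were seen. Those of Mx1 are also given outside these rules. Results of 2 genes of the lists are not reported here, and both are in the counts of their lists. Alternatives were RLE scaling, library size alone, scaling on leukocyte genes, no filter on low counts, a minimum of 10 counts per library, DESeq2 1.42.0, limma-trend 3.58.1, the adjusted p alone, and each library left out. Pools are biological replicates by the study's methods.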

Additional observations from a re-analysis of the deposited data

How the results depend on the processing

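Under RLE scaling, library size alone, no filter, the filter of at least 10 counts in every library (35 of the 39 genes tested), DESeq2, limma-trend and the adjusted p alone, 4 to 6 of the 39 genes were called, Zbp1, Oas3, Bst2 and Irf7 among them each time, and the median log2 fold change, where computed, was 0.37 to 0.42. DESeq2 and the stricter filter added Cmpk2 and Dhx58, no filter added Cmpk2, and the adjusted p alone added Ifi35. Leaving out 1 library, edgeR called 0 to 5 of the 39 genes higher and 0 to 1 lower, 0 to 814 of all genes higher and 0 to 1595 lower, 0 to 6 pathway genes and 0 to 18 further interferon-stimulated genes. The 0s came without WT pool 5, 6 or 13 or without pool 2, where 3521, 3735, 3874 and 5200 genes had an unadjusted p under 0.05. The median of the 39 was 0.0712 (without pool 7) to 0.46. Without pool 2 or pool 7 the lone library of its group is assumed to vary like the WT libraries. Scaled on the leukocyte genes, 16 genes were called higher and 13257 lower, 0 and 23 of the 39 were, 18 pathway genes (1 higher, 17 lower) and 21 further interferon-stimulated genes (all lower) were called, and the median of the 39 was -1.76, beside a shift of all genes of -2.22. The log2 fold changes that turned negative there were Isg15 -1.42, Ifit1 -2.19, Ifit3 -1.48, Mx1 -1.75, Oas1a -1.65, Oas2 -1.22, Oasl2 -1.79, Ifi27 -2.11, Ifi35 -1.32, Bst2 -0.88, Xaf1 -1.25, Rtp4 -1.82, Cmpk2 -0.92, Ddx58 -1.30, Dhx58 -0.91, Trim25 -2.23, Irf7 -1.19, Irf9 -1.71, Usp18 -1.84, Parp9 -1.66, Dtx3l -1.67, Gbp2 -1.73, Gbp7 -2.15, Igtp -1.23, Irgm1 -1.76, Ifnar1 -0.85, Ifnar2 -1.46, Ifngr1 -0.38, Ifngr2 -0.90, Jak1 -2.15, Jak2 -1.23, Tyk2 -1.14, Stat2 -2.21, Socs1 -0.41, Lgals3bp -0.35, Psmb8 -0.72, Ly6e -0.54, Uba7 -0.21, Cd274 -0.65 and Samhd1 -0.78. DESeq2 called 1213 genes higher and 1240 lower and 23 further interferon-stimulated genes, no filter 1157, 1488 and 20, and the stricter filter 641 lower and 16, against 679, 411 and 10. Of all called genes, 62.3% were higher in the main test, 49.4% with DESeq2, 43.7% with no filter and 33.8% without pool 7. Values near 0 also changed sign: Ifit1 -8e-04, Trim25 -3e-04 and Stat2 0 with RLE scaling, Ifit1 -0.019 and Trim25 -0.0039 with library size alone, Ifit1 -0.023, Trim25 -0.041, Gbp7 -0.022 and Stat2 -0.053 with no filter, Ifit1 -0.0098, Trim25 -0.015 and Stat2 -0.012 with the stricter filter, Stat2 -0.0018 with DESeq2, Ifit1 -0.076 with limma-trend. With 1 library left out, the genes whose sign changed ranged as follows: Mx1 -0.56 to 1.31, Gbp3 -0.52 to 0.27, Gbp7 -0.091 to 0.26, Ifit1 -0.73 to 0.46, Trim25 -0.056 to 0.059, Oasl1 -2.17 to 0.14, Stat2 -0.25 to 0.22, Ifi27 -0.13 to 0.37, Rtp4 -0.44 to 0.84, Usp18 -0.013 to 0.69, Gbp2 -0.28 to 0.91, Irgm1 -0.027 to 0.73. The cause was not tested. No paired analysis was possible because the groups share no replicate numbers. Depth limits genes such as Mx1, Oas1a and Ifi44, which had 6 to 10 counts in pool 2.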
